A study of Mus musculus with 6 samples.

Results

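Hyaluronan genes were examined in IL-11+ and IL-11- fibroblasts of the inflamed mouse colon. The group comprises the synthases *Has1*, *Has2* and *Has3*, the precursor enzyme gene *Ugdh*, the degradation genes *Cemip*, *Hyal1* and *Hyal2*, and the genes of the hyaluronan-binding proteins CD44, TSG-6 (*Tnfaip6*) and HAPLN1. These 10 genes, of 20327 gene symbols with tag counts, were chosen from earlier results of the same comparison between EGFP+ and EGFP- libraries, so that their values in it are a description. Whether each passed the thresholds used for all genes is given for orientation, without p-values, and is no independent test.

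Both groups came from *Il11-Egfp* reporter mice on the C57BL/6 background, aged 9 to 15 weeks, which carry a bacterial artificial chromosome with *Egfp* placed in *Il11*, and 1 transgenic line was used. All mice had received 1.5% DSS, an agent that injures the colonic epithelium, in drinking water for 5 days, and cells were sorted on day 7. Ter119-CD45-CD31-EpCAM- cells were divided into an EGFP+ fraction, called IL-11+ fibroblasts, and an EGFP- fraction, called IL-11- fibroblasts (n = 3 libraries each). The paper reports less than full purity for the EGFP+ fraction. How far carried-over cells add to its tags, also for genes abundant in the EGFP- fraction such as *Has1*, was not tested. RNA was read by 5′Tag-seq, in which tags from the 5′ side of polyA transcripts are counted, with 1022851 to 1169817 tags per library.

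Hyaluronan is a long, unsulfated glycosaminoglycan of alternating glucuronic acid and N-acetylglucosamine, which synthases in the plasma membrane extrude directly into the extracellular space. Its length and amount are set by synthesis and by cleavage, and proteins such as CD44 at the cell surface and TSG-6 in the matrix bind it. In the gut, hyaluronan lies mainly in the stroma made by fibroblasts and related mesenchymal cells, and it accumulates in the inflamed colon.

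Among these genes, the cleavage gene *Cemip* was about 30.3-fold more abundant in IL-11+ fibroblasts, whereas the synthase *Has1* and *Tnfaip6* were 3.51-fold and 2.04-fold more abundant in IL-11- fibroblasts. *Has2* and *Cd44* differed by less than 2-fold, and *Has3* was close to 0 in both groups. The group names are those of the sorted fractions, and the IL-11- fraction also held tags of other stromal cells. Of 11 smooth muscle and pericyte markers, 10 were called lower in the IL-11+ fraction, among them *Myh11* (means of 931 and 39.2 normalized CPM in IL-11- and IL-11+). The folds are thus between these fractions, not between pure fibroblasts. The comparison took genes that reached 10 tags in 3 or more libraries, which 7 of the 10 genes and 9334 genes in all did. *Has3*, *Hyal2* and *Hapln1* did not. Counts were compared by the quasi-likelihood test of edgeR, and called genes changed more than 2-fold with an adjusted p (Benjamini-Hochberg) under 0.05. By this rule 1 of the 7 genes (*Cemip*) was called higher in IL-11+ fibroblasts, where 321 of 9334 tested genes (3.44%) were, and 2 (*Has1* and *Tnfaip6*) were called lower, where 595 (6.37%) were. The groups did not overlap, with IL-11+ above, for 3 of the 7 genes and for 1353 (14.5%) of the tested genes, and with IL-11+ below for 2 of the 7 genes and for 1561 (16.7%). The log2 fold changes of the 7 genes had a median of -0.43, and those of all tested genes -0.01. Because the genes were chosen with this comparison known, nothing is read from these counts, and calls of these genes below are descriptions as well.

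**Figure D1:**
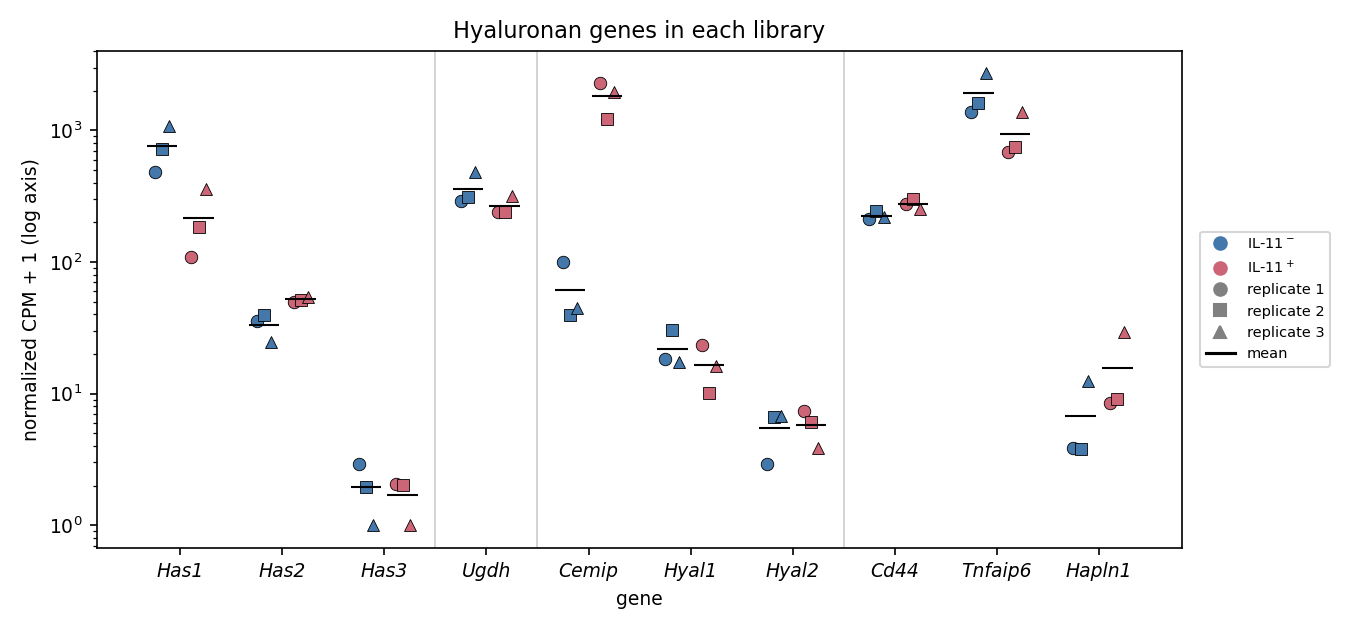
Tags of the 10 hyaluronan genes in each library, as normalized CPM + 1 on a log axis, with IL-11- libraries in blue, IL-11+ libraries in red, a symbol for each replicate number and a line at the mean of each group. *Cemip* lies far higher in the 3 IL-11+ libraries, with means of 60.2 and 1819 normalized CPM, and *Has1* lies lower, with means of 760.4 and 216 normalized CPM.

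Of the synthases, *Has1* gave 501, 764 and 1319 tags in IL-11- libraries against 102, 181 and 374 in IL-11+ libraries, where values of single libraries stand in the order of replicates 1, 2 and 3. All 3 IL-11+ libraries were below all 3 IL-11- libraries, and replicate 3 was the highest of both groups. After scaling by library size and composition (CPM normalized by TMM factors), *Has1* stood at 760.4 ± 304 in the IL-11- group and 216 ± 127 in the IL-11+ group (± SD over 3 libraries), and the log2 fold change was -1.81 (SE 0.325). Between libraries with the same replicate number, which were taken as pairs, IL-11- was 4.42-fold, 3.92-fold and 3.04-fold above IL-11+ for replicates 1, 2 and 3. *Has1* lies on chromosome 17, from 17843323 to 17855205 on the minus strand of GRCm38. In these bulk libraries, fewer cells that express a gene and less RNA per cell cannot be told apart.

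*Has2*, which encodes the synthase needed for hyaluronan in the developing embryo, gave 36, 41 and 29 tags in IL-11- libraries against 46, 50 and 56 in IL-11+ libraries. The IL-11+ libraries lay close together and above the IL-11- libraries, but the difference of the group means was under 2-fold. In pairs, IL-11+ was 1.42-fold, 1.31-fold and 2.24-fold above IL-11- for replicates 1, 2 and 3. The levels were 32.3 ± 7.63 and 51.0 ± 2.33 normalized CPM (± SD over 3 libraries), the log2 fold change was 0.67 (SE 0.237), and the gene was not called. *Has2* (chromosome 15, 56665627 to 56694539, minus strand) overlaps the antisense gene *Has2os*, which had at most 2 tags in any library, and tags were mapped in one orientation.

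*Has3* gave 2, 1 and 0 tags in IL-11- libraries against 1, 1 and 0 in IL-11+ libraries. Both groups stayed under the floor of 3 tags, so no fold change is given, and a difference was not detectable at this depth. *Has3* (chromosome 8, 106870242 to 106884566, plus strand) overlaps *Chtf8* on the other strand.

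The balance of synthase tags between genes differed along with these levels. *Has1* gave 92.9%, 94.8% and 97.8% of the *Has1*, *Has2* and *Has3* tags together in IL-11- libraries and 68.5%, 78.0% and 87.0% in IL-11+ libraries. The share of *Has2* was 6.68%, 5.09% and 2.15% in IL-11- and 30.9%, 21.6% and 13.0% in IL-11+ libraries. *Has1* thus gave most synthase tags in every library, and the *Has2* share was higher in each IL-11+ library than in any IL-11- library. The exact Clopper-Pearson interval (95%) of the *Has2* share was widest in IL-11+ replicate 1, from 23.6% to 39.0%, where synthase tags were fewest (149), and narrowest in IL-11- replicate 3, from 1.45% to 3.08%, where they were most (1348). Intervals and floors of this kind cover counting error only. *Has3* had 0 of 1348 and 0 of 430 synthase tags in replicate 3 of the groups, for which these intervals reach up to 0.273% and 0.854%. Means over the 3 libraries were 4.64 ± 2.30% and 21.8 ± 8.93% for *Has2* (SD, n = 3). Per kilobase of the longest annotated coding transcript (2095 nt for *Has1*, 4237 nt for *Has2* and 5912 nt for *Has3*), the mean *Has2* share was 2.36 ± 1.19% and 12.4 ± 5.65%. This scale was added after seeing the data. Because tags come from the 5′ side of transcripts, their number need not rise with transcript length, so the scale may not suit them.

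**Figure D2:**
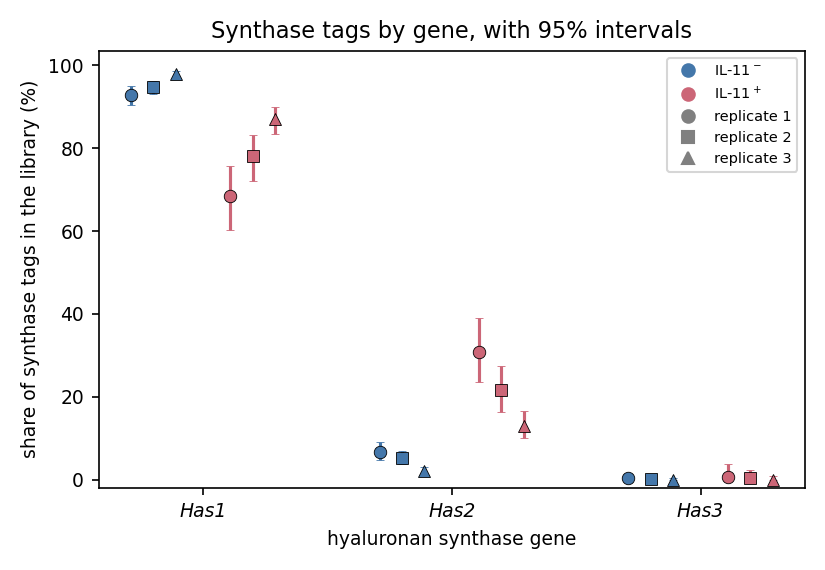
Share of each synthase gene in the summed *Has1*, *Has2* and *Has3* tags of a library, in percent, with 95% Clopper-Pearson intervals. *Has2* ranged from 2.15% to 6.68% in the IL-11- libraries (blue) and from 13.0% to 30.9% in the IL-11+ libraries (red).

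*Ugdh* encodes UDP-glucose dehydrogenase, which makes the UDP-glucuronic acid that synthases use. It gave 304, 327 and 582 tags in IL-11- libraries against 225, 237 and 334 in IL-11+ libraries. IL-11+ replicate 3 overlapped the IL-11- libraries, and replicate 3 was again the highest of both groups. The levels of 359 ± 104 and 266 ± 45.6 normalized CPM (SD, n = 3) gave a log2 fold change of -0.43 (SE 0.200), and the gene was not called. In each pair the IL-11- library was above the IL-11+ library, by 1.22-fold, 1.28-fold and 1.50-fold. In the annotated *Ugdh* transcripts, 11.5% of 50-nt stretches at the 5′ side also occur in other genes, so some tags can be shared. *Ugdh* lies on chromosome 5, from 65413221 to 65435949 on the minus strand.

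For degradation, *Cemip* encodes a hyaluronan-binding protein through which fibroblasts take up and cleave hyaluronan. It gave 103, 41 and 53 tags in IL-11- libraries against 2146, 1198 and 2062 in IL-11+ libraries. The lowest IL-11+ library was more than 10-fold above the highest IL-11- library, and IL-11+ replicate 2 was the lowest of its group. The level was 60.2 ± 33.2 normalized CPM in the IL-11- group and 1819 ± 544 in the IL-11+ group (± SD over 3 libraries), and the log2 fold change was 4.92 (SE 0.319). The ratio of IL-11+ to IL-11- in pairs was 23.1, 31.5 and 45.2 for replicates 1, 2 and 3. No 50-nt stretch at the 5′ side of *Cemip* (chromosome 7, 83932857 to 84086502, minus strand) occurs in another gene.

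The hyaluronidase genes were low. *Hyal1*, which encodes a lysosomal hyaluronidase, gave 18, 31 and 20 tags in IL-11- libraries against 21, 9 and 16 in IL-11+ libraries. The groups overlapped, at 20.9 ± 7.17 and 15.6 ± 6.56 normalized CPM (SD, n = 3; log2 fold change -0.43, SE 0.364). *Hyal1* shares 34.7% of its 50-nt stretches at the 5′ side with the overlapping gene *Naa80*, which makes its count uncertain. *Hyal2*, whose product is anchored at the cell surface, gave 2, 6 and 7 tags in IL-11- libraries against 6, 5 and 3 in IL-11+ libraries. Its summed tags, 15 and 14, gave a ratio of 1.04 with a 95% counting interval of 0.466 to 2.32, and the groups overlapped. *Hyal2* (107567945 to 107572779) and *Hyal1* (107576927 to 107581710) are neighbours on the plus strand of chromosome 9.

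Among the receptors and binding proteins, *Cd44*, which encodes the main cell-surface receptor of hyaluronan, gave 221, 259 and 265 tags in IL-11- libraries against 260, 293 and 266 in IL-11+ libraries. On the normalized scale the IL-11+ libraries lay just above the IL-11- libraries, and the spread within each group was small. The levels were 224 ± 17.5 and 276 ± 21.9 normalized CPM (± SD over 3 libraries), and the log2 fold change was 0.30 (SE 0.160), so the gene was not called. *Cd44* lies on chromosome 2, from 102811141 to 102901665 on the minus strand.

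*Tnfaip6* encodes TSG-6, a secreted protein that binds hyaluronan and transfers the heavy chains of inter-alpha-inhibitor onto it. It gave 1453, 1716 and 3298 tags in IL-11- libraries against 642, 736 and 1441 in IL-11+ libraries. IL-11+ replicate 3 nearly reached IL-11- replicate 1, at 1374 against 1387 normalized CPM, and replicate 3 was the highest of both groups. The means were 1904 ± 706 and 934 ± 383 normalized CPM (± SD over 3 libraries), and the log2 fold change was -1.03 (SE 0.263), which is close to the fold-change threshold. Within pairs the IL-11- library was 2.04-fold, 2.16-fold and 1.97-fold above the IL-11+ library, so the ratio varied less between replicates than the level did. The call was lost without IL-11- replicate 3 (log2 fold change -0.68), IL-11+ replicate 1 (-0.84) or IL-11+ replicate 2 (-0.89). The gene was also not called by DESeq2 (-1.02), where it passed the fold-change threshold but its adjusted p was not under 0.05. With no filter on low counts (-0.99) it was not called because it stayed under the fold-change threshold. These 2 log2 fold changes were close to the -1.03 given above. *Tnfaip6* lies on chromosome 2, from 52038009 to 52056686 on the plus strand.

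*Hapln1*, which encodes a link protein that fastens proteoglycans to hyaluronan, gave 3, 3 and 14 tags in IL-11- libraries against 7, 8 and 30 in IL-11+ libraries. The groups overlapped, because replicate 3 was high in both. The summed tags, 20 and 45, gave a ratio of 2.51 with a 95% counting interval of 1.45 to 4.49, and in pairs the ratio was 2.59, 2.87 and 2.49. *Hapln1* (89539796 to 89611652, plus strand) lies beside *Vcan* (89655312 to 89742509, minus strand) on chromosome 13, and 2.21% of its 50-nt stretches at the 5′ side occur in other genes.

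Replicate 3 was the highest library of both groups for *Has1*, *Tnfaip6*, *Ugdh* and *Hapln1*. Relative to the mean of replicates 1 and 2, it stood 1.81-fold as high in the IL-11- group and 2.44-fold in the IL-11+ group for *Has1*, and 1.80-fold and 1.93-fold for *Tnfaip6*. The median of this ratio over all tested genes was 0.995 and 0.997. *Il11* was also highest there, with 28, 51 and 89 tags in IL-11- libraries against 1357, 732 and 2658 in IL-11+ libraries. Without replicate 3 of both groups, a fit added after seeing the data, the log2 fold change was -2.03 for *Has1*, -1.07 for *Tnfaip6* and 4.67 for *Cemip*, and the counts of called genes among the 7 were as before.

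Markers of other cell types were compared along with these genes. The 11 smooth muscle and pericyte markers summed to 4748, 5074 and 5745 normalized CPM in IL-11- libraries against 442, 459 and 653 in IL-11+ libraries, with *Rgs5* as the most abundant, and 10 of the 11 were called lower. *Myh11* gave 850, 943 and 1332 tags in IL-11- libraries against 18, 18 and 84 in IL-11+ libraries, and *Des* gave 156, 129 and 221 against 5, 19 and 13. All 3 interstitial cell of Cajal markers were called lower (sums 271, 168 and 258 against 21.2, 20.3 and 50.5, most abundant *Ano1*). Of the 5 glial markers analysed, only *Gfap*, the most abundant, was tested, and it was called lower (sums of the list 28.6, 41.5 and 37.0 against 1.06, 0 and 0.954), and *Sox10* had 2, 3 and 5 tags against 0 in each IL-11+ library. *Has1*, *Tnfaip6* and the sums of these 3 lists were all lower in IL-11+ fibroblasts, a direction shared with the 595 (6.37%) tested genes called lower. Replicate 3 was the highest of both groups for *Has1*, *Tnfaip6*, *Myh11* and the summed muscle and pericyte markers. The fibroblast marker *Lum* was also highest there (1024, 1221 and 1768 against 722, 916 and 946 normalized CPM). Of the muscle and pericyte list, *Des* was highest in replicate 2 of the IL-11+ group. On the normalized scale, *Rgs5*, *Pdgfrb* and *Cspg4* of the same list were lowest in replicate 3 of the IL-11- group. The Cajal and glial sums were not highest in that library, but the Cajal sum of the IL-11+ group was highest in replicate 3. The part of these cells in the result was not tested.

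Markers of the sorted-out cells were low, apart from erythroid markers in some libraries, and so were those of mesothelial cells, against which the sort used no marker. The 14 haematopoietic markers summed to 34.4, 67.8 and 38.6 normalized CPM in IL-11- libraries against 27.6, 20.3 and 22.9 in IL-11+ libraries. *Cd74*, the most abundant and the only 1 tested, was called lower, and *Ptprc* had 1, 2 and 7 against 0, 3 and 0 tags. Of the 7 endothelial markers analysed only *Eng* was tested, and it was not called (sums 52.5, 60.3 and 70.6 against 51.9, 63.0 and 47.7), while *Pecam1* had 1 tag in 1 library. The 8 epithelial markers summed to at most 23.8, in IL-11- replicate 3, with *Krt8* as the most abundant over all 6 libraries, and *Epcam* had at most 1 tag per library. The 6 mesothelial markers summed to at most 17.2, also in IL-11- replicate 3, with *Wt1* as the most abundant over all 6 libraries, and *Msln* and *Upk3b* were at 0 in all IL-11+ libraries. The 6 erythroid markers summed to 90.7, 0 and 305 in IL-11- libraries against 19.1, 2.03 and 19.1 in IL-11+ libraries (most abundant *Hbb-bs*), and their part in the values of replicate 3 was not tested.

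Fibroblast markers were abundant in both groups. The 11 markers summed to 23560, 23900 and 26070 normalized CPM in IL-11- libraries against 44260, 36210 and 31690 in IL-11+ libraries, with *Dcn* as the most abundant. Of the 11, 2 were called higher (*Col3a1* and *Pdpn*) and none lower. Of the summed level, *Dcn* made up 12085 and 19217 normalized CPM (group means) and *Col3a1* 4368 and 9008. *Lum* and *Vim* went the other way. All 3 IL-11+ libraries were below all 3 IL-11- libraries for *Lum* (log2 fold change -0.64, SE 0.201, adjusted p = 0.0378 by edgeR), which was under the fold-change threshold, and *Vim* stood at -0.27 (SE 0.185). *Pdgfra* had 625 ± 82.1 and 728 ± 75.4 normalized CPM (SD, n = 3) and *Col1a1* had 525 ± 127 and 669 ± 101, and neither was called. Each marker analysed had at least 1 tag in 1 library.

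Other genes of the pathway were taken from lists made by function, but with earlier results of these data known, so that nothing about the lists is read from their counts. The p-values of single genes are those of the fit across all genes, adjusted over 9334 tested genes, and are not independent of those earlier results. Of 56 such genes, 45 were analysed and 31 were tested, and 3 were called higher and 4 lower in IL-11+ fibroblasts, where 3.44% and 6.37% of all tested genes were. Their median log2 fold change was 0.05, against -0.01 for all tested genes. The p-values measure the spread between these 6 libraries. Counts of unadjusted p-values under 0.05 are given below without the share over all tested genes, and nothing is read from them.

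The UDP-sugar list covers the enzymes that make the building blocks of hyaluronan, with 1 of 15 tested genes called higher, 1 lower and a median log2 fold change of 0.05. The called genes are paralogs for the first and rate-limiting step of the hexosamine pathway to UDP-N-acetylglucosamine, and they went in opposite directions. *Gfpt2* gave 1033, 1009 and 1238 tags in IL-11- libraries against 267, 357 and 473 in IL-11+ libraries, and *Gfpt1* had 40, 55 and 66 against 93, 94 and 122. Neither gene overlapped between groups. *Gfpt2* fell by 1.43 on the log2 scale (SE 0.183, adjusted p = 1.89e-05 by edgeR), and *Gfpt1* rose by 1.10 (SE 0.195, adjusted p = 0.000545 by edgeR). No 50-nt stretch at the 5′ side of either gene occurs in another gene. Without IL-11- replicate 1, *Gfpt1* stood at 0.96 and was not called. In all, 6 of the 15 had an unadjusted p under 0.05. *Gnpnat1*, of the same hexosamine pathway, stood at 0.88 with groups that did not overlap, under the fold-change threshold with an adjusted p of 0.0247 by edgeR. The log2 fold changes of *Hk2*, *Uap1*, *Gpi1* and *Ugp2*, the most abundant genes of the list that were not called, were 0.47, -0.57, -0.09 and 0.05.

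Of the other breakdown genes, 0 of 3 tested genes were called in either direction by edgeR, 0 by DESeq2 and 0 by the exact test, while 1 (*Tmem2*) had an unadjusted p under 0.05. *Tmem2*, which encodes a cell-surface protein related to CEMIP, gave 32, 19 and 23 tags in IL-11- libraries against 36, 30 and 47 in IL-11+ libraries. Its log2 fold change was 0.76 (SE 0.282, adjusted p = 0.0804 by edgeR), and it was called without IL-11- replicate 1 (1.04). *Hexa* and *Gusb* had log2 fold changes of -0.23 and 0.15.

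Of the other receptors, 0 of 2 tested genes were called by edgeR, 0 by DESeq2 and 0 by the exact test, while 1 (*Tlr4*) had an unadjusted p under 0.05. *Layn*, for the receptor layilin, had 47.1 ± 2.78 and 61.4 ± 2.69 normalized CPM (SD, n = 3; log2 fold change 0.38, SE 0.197). *Tlr4*, for a pattern recognition receptor that has been linked to hyaluronan fragments, had 105 ± 22.1 and 73.0 ± 18.7 (log2 fold change -0.52, SE 0.211). The remaining receptor genes, among them *Lyve1* with 3, 0 and 2 tags in IL-11- libraries and 0 in each IL-11+ library, did not pass the filter.

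All 3 tested genes of other hyaluronan-binding matrix proteins were called, with 1 higher, 2 lower and a median log2 fold change of -1.27. *Vcan*, for the large proteoglycan versican, gave 366, 474 and 486 tags in IL-11- libraries against 911, 1150 and 910 in IL-11+ libraries. It rose by 1.33 on the log2 scale (SE 0.175, adjusted p = 2.65e-05 by edgeR). *Itih5*, for a heavy chain of the inter-alpha-inhibitor family, had 312, 329 and 306 against 41, 48 and 79 tags and fell by 2.35 (SE 0.205, adjusted p = 2.53e-07 by edgeR). *Ptx3*, for a pentraxin that takes part in cross-linking hyaluronan with TSG-6 and heavy chains, had 307, 319 and 712 against 126, 146 and 216 tags. It fell by 1.27 (SE 0.244, adjusted p = 0.00112 by edgeR), and without IL-11- replicate 3 it stood at -0.87 and was not called. For each of these 3 genes the groups did not overlap, and *Ptx3* was highest in replicate 3 of both groups, as *Tnfaip6* was.

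Of the CD44 partners and sheddases, 1 of 8 tested genes was called higher and 1 lower, with a median log2 fold change of 0.31, also with *Spp1* at its lower bound. *Spp1*, for the CD44 ligand osteopontin, gave 1, 0 and 0 tags in IL-11- libraries against 203, 27 and 29 in IL-11+ libraries. Against the floor of 3 tags per library it was at least 33.1-fold higher (adjusted p = 9.56e-05 by edgeR), and at least 10.1-fold without IL-11+ replicate 1. At the 5′ side, 29.5% of its 50-nt stretches also occur in the annotated gene *Gm42793*. *Srgn*, for the proteoglycan serglycin, had 21, 21 and 27 against 5, 12 and 3 tags and fell by 1.60 (SE 0.427, adjusted p = 0.0141 by edgeR). *Srgn* was not called without IL-11+ replicate 1 (-1.46), IL-11+ replicate 3 (-1.22) or replicate 3 of both groups (-1.16). Without IL-11+ replicate 2 it was called, at -2.32. *Mmp14*, for a membrane metalloproteinase that can shed CD44, had 1719 ± 327 and 3235 ± 402 normalized CPM (SD, n = 3). Its log2 fold change of 0.91 (SE 0.187) was under the fold-change threshold with an adjusted p of 0.00195 by edgeR, and it was called without IL-11- replicate 2 (1.02). *Adam17*, at 0.65 with an adjusted p of 0.0340 by edgeR, was also under that threshold. The log2 fold changes of *Rdx*, *Msn* and *Adam10* were 0.04, 0.27 and 0.35, and none was called.

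**Figure D3:**
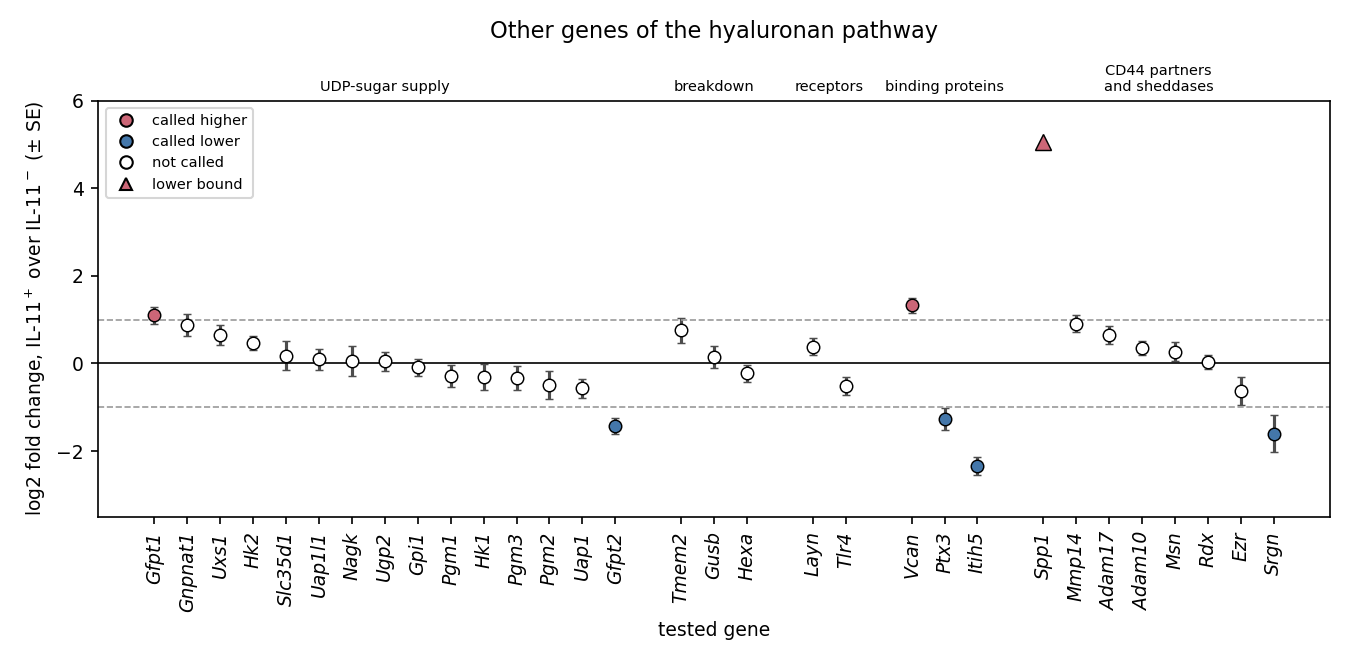
Log2 fold change with SE of the 31 tested genes of the pathway lists, IL-11+ over IL-11-, by list. Dashed lines mark the 2-fold threshold, red and blue points are genes called higher (3) and lower (4), open points were not called, and the triangle is the lower bound of *Spp1*.

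Likeness of profiles was measured as the Euclidean distance between mean-centred log2 normalized CPM over the 6 libraries. The tested genes nearest to *Cemip* were *Mmp10* (distance 0.626), *Mmp13* (0.693) and *Nppc* (1.54), where the median distance of all other genes was 6.26. *Mmp10* gave 40, 26 and 31 tags in IL-11- libraries against 1275, 542 and 959 in IL-11+ libraries, so that IL-11+ replicate 2 was the lowest of its group as for *Cemip*. Of its 50-nt stretches at the 5′ side, 12.4% also occur in *Mmp3*. The genes nearest to *Has1* were *Cadm3* (0.576), *Col14a1* (0.710) and *Enpp3* (0.789), with a median of 2.84. *Col14a1* had 409, 517 and 638 against 56, 111 and 168 tags, with replicate 3 highest in both groups. The genes nearest to *Tnfaip6* were *Osbpl5* (0.282), *Ptx3* (0.423) and *Cd81* (0.424), with a median of 1.82.

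Promoter sequences of 8 of the 10 genes were taken from RefSeq (GRCm38.p6), and all 250 bases before each start, also those that lie in an annotated exon, were searched on both strands for the TATA box motif TATAAA, the AP-1 motif TGANTCA, the CREB and ATF motif TGACGTCA, the STAT motif TTCNNNGAA and the NF-kB motif. Each of these 5 motifs was found in 1 of the 8 promoters. Among 32851 promoters of the same length, the shares that hold them are 12.4%, 6.75%, 1.55%, 7.02% and 3.90%. The promoters of *Cemip*, *Has1* and *Tnfaip6* are shown because these genes were called, and only from these printed sequences were exon bases left out. *Cemip* holds TATAAA 29 to 24 bases before its start, *Has1* holds TGACGTCA 83 to 76 bases before its start, and *Tnfaip6* holds TGAGTCA, a form of TGANTCA, 142 to 136 and TTCTGAGAA, a form of TTCNNNGAA, 209 to 201 bases before its start. The NF-kB motif was found in *Hyal2*. The matches, in capitals, do not overlap one another and are a description of the letters only. The sequences run 5′ to 3′ on the strand of the gene and cover chr7:84086506-84086755 (minus) for *Cemip*, chr17:17855206-17855438 (minus) for *Has1* and chr2:52037863-52038008 (plus) for *Tnfaip6*.
Cemip: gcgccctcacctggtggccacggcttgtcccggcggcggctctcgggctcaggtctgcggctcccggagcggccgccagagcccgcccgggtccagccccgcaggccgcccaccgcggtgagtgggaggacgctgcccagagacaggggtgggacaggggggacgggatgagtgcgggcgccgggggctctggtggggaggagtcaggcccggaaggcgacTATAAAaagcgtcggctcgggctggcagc
Has1: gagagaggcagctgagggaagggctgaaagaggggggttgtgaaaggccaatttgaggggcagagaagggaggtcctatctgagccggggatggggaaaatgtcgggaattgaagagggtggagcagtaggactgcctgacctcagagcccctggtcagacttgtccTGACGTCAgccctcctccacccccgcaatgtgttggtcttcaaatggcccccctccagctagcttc
Tnfaip6: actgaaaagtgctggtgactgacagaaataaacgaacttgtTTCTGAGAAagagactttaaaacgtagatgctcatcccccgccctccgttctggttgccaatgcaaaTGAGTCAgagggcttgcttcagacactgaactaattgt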

How the data were processed

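RNA from sorted IL-11+ and IL-11- fibroblasts (n = 3 libraries per group, groups and replicate numbers from the sample labels) was analyzed. The authors used Cutadapt 1.18 for trimming and Bowtie2 2.2.5 for mapping 5′ tags in one orientation against RefSeq mm10 RNA, and deposited raw tag counts per gene symbol. Genes that reached 10 tags in 3 or more of the 6 libraries were compared with edgeR 4.0.16 (R 4.3.3), using TMM normalization and the quasi-likelihood test (glmQLFit, glmQLFTest) with Benjamini-Hochberg adjustment over all 9334 tested genes. Called genes had adjusted p-values under 0.05 and changed more than 2-fold. Library totals ranged from 1022851 to 1169817 tags, and 3 tags, the floor, stand at 2.46 to 3.18 normalized CPM. The fit was tested on simulated data.

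The hyaluronan genes and all lists were chosen with earlier results of these data known. Genes named are the 10 hyaluronan genes, called genes of the pathway lists with up to 4 other abundant ones per list, the most abundant and defining markers of each cell type, *Il11*, and the 3 genes nearest in profile to *Cemip* and to the 2 most abundant of the other hyaluronan genes. *Col3a1*, *Lum*, *Vim*, *Pdgfrb*, *Cspg4*, *Gnpnat1*, *Adam17*, *Lyve1*, *Has2os*, *Chtf8*, *Naa80*, *Gm42793* and *Mmp3* were added after their values or sequences were seen. Of the genes in the lists, 11 pathway genes and 3 markers were not analysed here, and 1 other gene of each kind is not reported here.

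Same-numbered libraries were taken as pairs, because their deviations from the group means correlated (r = 0.23, 0.185 and 0.264 across 5063 genes averaging 30 tags or more, which are not independent replicates). No libraries of a group agreed within sampling noise.

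Positions and 50-nt windows of the first 300 nt of transcripts come from GENCODE vM21 (GRCm38). Exact intervals were computed with scipy 1.17.1. Alternatives were RLE, library-size scaling, the iterative TMM scheme of TCC with the exact test (3 iterations), DESeq2 1.42.0, no and stricter filters, the replicate block, each library left out, no fold-change threshold and, added after seeing the data, replicate 3 left out of both groups and synthase shares per kilobase.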

Additional observations from a re-analysis of the deposited data

How the results depend on the processing

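Of 27 genes followed (the 7 tested hyaluronan genes and 20 pathway genes) through 15 alternatives, 21 kept their side of the thresholds wherever they were tested, and no called gene changed sign. The main fit did not use the pairs. With the replicate block, 337 genes were called higher and 648 lower, with 1 and 2 of the hyaluronan genes and 3 and 4 of the pathway genes among them. The block changed no call among the 27 genes, but it did change adjusted p-values. By edgeR with the block they fell under 0.05 for *Has2*, *Ugdh*, *Hk2* (0.0163), *Uap1* (0.00488), *Tmem2* (0.0341) and *Tlr4* (0.046). These genes were not called because they stayed under the fold-change threshold. In the main fit without a fold-change threshold, 638 genes and 6 pathway genes were higher. With at least 30 tags in 3 libraries, where 5275 genes were tested, 208 were higher and 326 lower. With no filter on low counts, 2 hyaluronan genes were higher and 1 lower, since *Hapln1* was then tested and *Tnfaip6* stood at -0.99. With DESeq2, 1 hyaluronan gene was lower, since *Tnfaip6* stood at -1.02, past the fold-change threshold, but its adjusted p was not under 0.05. With each library left out in turn, 267 to 329 genes were higher and 483 to 580 lower. Of the hyaluronan genes, 1 to 2 were lower and 1 was higher, and of the pathway genes 3 to 4 were higher and 3 to 4 lower. *Tnfaip6* ranged from -1.42 to -0.68 on the log2 scale, *Has1* from -2.38 to -1.47 and *Cemip* from 4.70 to 5.46. Mean synthase shares in IL-11+ fibroblasts ranged from 73.2% to 82.5% for *Has1* and from 17.3% to 26.2% for *Has2*, and per kilobase they were 87.5% and 12.4%. Scaling by library size only moved the median log2 fold change of all genes to -0.10, and no tested hyaluronan gene changed direction under any alternative. Depth limits *Has3*, *Hyal1*, *Hyal2* and *Hapln1*, whose tags per library stayed at or under 31.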
